A study of Homo sapiens with 9 samples.

Results

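The 40 genes described here are mitosis and G2/M genes, chosen by name as cyclins, mitotic kinases, spindle, kinetochore, chromosome and cytokinesis genes together with FOXM1. The rule uses names and no measured value, but the genes were picked with earlier results of these data known. They are 40 of the 58676 genes in the count table, and all 40 were expressed highly enough to be tested. RNA was sequenced from OVCA433, an established line of human ovarian serous adenocarcinoma cells that the labels give as wild type, in 9 libraries. All cells were transduced with lentivirus, carrying a control vector, MPZL3 shRNA hairpin #1 or MPZL3 shRNA hairpin #3, with 3 libraries marked A, B and C in each group. The methods call the control of this line an empty vector in 1 passage and a scrambled control in another, so whether the control cells express a hairpin is uncertain. The study calls the 3 libraries of a group biological replicates of 1 cell line, and the sources do not say what libraries with the same letter share.

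Entry into mitosis is driven by CDK1 bound to A- and B-type cyclins, once CDC25 phosphatases remove inhibitory phosphates from CDK1. PLK1 and the Aurora kinases then organise the spindle, kinetochore proteins attach chromosomes to microtubules, the spindle checkpoint holds back the anaphase-promoting complex until attachment is complete, and kinesins and contractile proteins divide the cell. Most of these genes are repressed by the DREAM complex in resting cells and early in the cycle, and transcribed in G2 and M under MuvB complexes and FOXM1. In a growing culture their messages are therefore a common readout of how many cells are cycling. In bulk RNA, however, fewer cells in mitosis and less of a message per cell cannot be told apart.

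Libraries held 16850854 to 23890191 counts, and the 40 genes took 0.6176% to 0.8941% of them. Levels are given as CPM, counts scaled to library size with TMM factors, and fold changes are log2 differences from edgeR's quasi-likelihood model with a standard error (SE). A gene was called at a Benjamini-Hochberg adjusted p-value under 0.05 over the 15975 tested genes. MPZL3, the targeted gene, had a mean level of 19.5 ± 3.42 CPM in the control vector libraries, against 1.88 ± 0.0926 CPM for hairpin #1 and 1.57 ± 0.514 CPM for hairpin #3 (SD, n = 3 each). Of the 8 ovarian serous markers, keratins, EPCAM and PAX8 were present in control cells, WT1 was at 0 in all 9 libraries and MUC16 was at 3.18 CPM in control and 0 in knockdown cells. Group means of PAX8 were 97 CPM for control, 200 for hairpin #1 and 207 for hairpin #3, and those of EPCAM, in the same order, were 403, 5.48 and 8.93 CPM. The summed level of the 8 was 11100 to 14000 CPM in control, 5340 to 6810 with hairpin #1 and 5250 to 5870 with hairpin #3. Markers of blood and vessel cells summed to 1.05 to 2.03 CPM over 12 genes in control, 5.47 to 7.16 with hairpin #1 and 6.04 to 7.69 with hairpin #3, and MS4A1, LYZ and HBB were at 0 in every library. The rise of this sum lay mostly in CDH5, with means of 0.0971, 2.29 and 3.7 CPM, and KDR, with 0.291, 2.54 and 1.71, while the leukocyte gene PTPRC was at 0.454, 0.469 and 0.342. The part of these markers in the results was not tested.

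The levels of the 40 genes were compared as CPM per kb of the gene length in the table, averaged over the 9 libraries. The median gene was at 29 CPM per kb. CDC20, the activator of the anaphase-promoting complex, was highest at 232 CPM per kb, followed by the spindle assembly factor TPX2 at 138 and the ubiquitin-conjugating enzyme UBE2C at 108. CDC20 was at 452, 428 and 434 CPM in control libraries A, B and C, at 560, 412 and 511 CPM with hairpin #1 and at 501, 517 and 434 CPM with hairpin #3, and its groups overlapped. PRC1, which bundles the central spindle, was lowest at 0.131 CPM per kb, and the spindle protein NUSAP1 followed at 0.901. The counts of these last genes are uncertain. PRC1 lies 99.5% inside a protein-coding entry on the same strand, AC068831.7, and NUSAP1 lies 99.4% inside another, AC087721.2, and the length the table gives each of those entries equals its whole span, introns included. PRC1 was at 0.63, 0.697 and 0.478 CPM in control, 1.17, 0.407 and 0.686 CPM with hairpin #1 and 0.706, 1.04 and 0.69 CPM with hairpin #3, with 8 to 25 counts in a library. It received 132 counts over all libraries, against 782 for the entry that covers it, whereas NUSAP1 received 473 and the entry that covers it 0. NUSAP1 had 40 to 64 counts in a library, and the other 38 members had between 302 and 14318. In all, 24 of the 40 genes overlapped another entry of the table, mostly over a small stretch, and reads without strand cannot be divided between overlapping genes. The longest overlaps among the others were those of NUF2 with RGS5, over 62% of NUF2, and of CENPA with SLC35F6, over 46.1% of CENPA.

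Knockdown of MPZL3, with both hairpins as 1 arm of 6 libraries against 3 control libraries, raised 4 of the 40 genes and lowered none at an adjusted p-value under 0.05. These were CDC25B, CBX5, CKAP2L and CKAP2. In these 4 genes all 6 knockdown libraries lay above all 3 control libraries, beside 15.5% of all tested genes. In 0 members did all 6 lie below control, beside 17.6% of all tested genes. Of all tested genes, 33.0% were called in this comparison, 15.9% higher and 17.0% lower, so the 10% of members called was below the background and no fall of the mitotic genes was called. None of the 40 changed by 2-fold or more, a size reached by 14.7% of all tested genes. The median log2 fold change of the 40 was 0.07, with 23 above 0 and 17 below, beside a median of 0.0045 over all tested genes. At an unadjusted p under 0.05 there were 7 of the 40 members, beside 6734 of the 15975 tested genes. The model of this comparison held no term for the replicate letter. With the letter added as a replicate block, 9 members were called higher and 0 lower, beside 36.1% of all tested genes. The members added were CDK1, BIRC5, CENPF, TOP2A and FOXM1 (adjusted p 0.00363 to 0.0438 by edgeR), which are described below without the block.

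Among the cyclins, CDK1 and its phosphatases, CDC25B moved furthest. CDC25B (ENSG00000101224, chromosome 20, 3786772 to 3806121), the phosphatase that starts CDK1 activation at the centrosome, was at 133, 128 and 123 CPM in control libraries A, B and C, 219, 240 and 232 CPM with hairpin #1, and 226, 239 and 217 CPM with hairpin #3. Every knockdown library lay above every control library, and the hairpin groups overlapped. The pooled rise was 0.84 on the log2 scale (SE 0.0778, adjusted p 6.116e-06 by edgeR). The other phosphatase of this class, CDC25C, was not called, at -0.20 (95% interval -0.45 to 0.06).

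CDK1, the kinase itself, was at 148, 141 and 109 CPM in control, 189, 158 and 149 CPM with hairpin #1 and 182, 189 and 147 CPM with hairpin #3. Of the 6 knockdown libraries, 5 lay above all control libraries, and the groups overlapped through hairpin #3 replicate C. The pooled difference was 0.35 (SE 0.127, adjusted p 0.0521 by edgeR), which missed the threshold. CCNB1, the B-type cyclin that binds CDK1, was at 259, 242 and 224 CPM in control, 285, 205 and 207 CPM with hairpin #1 and 207, 223 and 178 CPM with hairpin #3. Hairpin #1 replicate A was the highest library, and the other 5 knockdown libraries lay below every control library. The pooled difference was -0.15 (95% interval -0.44 to 0.13).

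Of the mitotic kinases and the chromosomal passenger complex, none of 7 genes was called in the pooled comparison. PLK1, a kinase of centrosome maturation and mitotic exit, was at 121, 128 and 113 CPM in control, 132, 99 and 107 CPM with hairpin #1 and 113, 120 and 91.7 CPM with hairpin #3. The groups overlapped, and the pooled difference was -0.13 (95% interval -0.37 to 0.12). AURKA, which organises spindle poles, was at 226, 237 and 208 CPM in control, 211, 154 and 155 CPM with hairpin #1 and 245, 238 and 188 CPM with hairpin #3. Hairpin #1 replicates B and C were lowest, and hairpin #3 spanned the control range. BIRC5 (survivin), a passenger protein at the centromere, was at 261, 241 and 250 CPM in control, 354, 249 and 300 CPM with hairpin #1 and 335, 297 and 282 CPM with hairpin #3. The 6 knockdown libraries lay above all control libraries except hairpin #1 replicate B, with a pooled difference of 0.27 (SE 0.11, adjusted p 0.0797 by edgeR). AURKB, TTK, BUB1 and BUB1B had pooled differences between 0.03 and 0.12.

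Spindle proteins supplied a pair of the 4 rises. CKAP2L (ENSG00000169607, chromosome 2, 112736607 to 112764677), a spindle protein of dividing cells, measured 69, 65.1 and 58.4 CPM in control, 112, 90.7 and 94.5 CPM with hairpin #1 and 96.5, 96.6 and 79.4 CPM with hairpin #3. All knockdown libraries exceeded all control libraries, and the rise was 0.57 on the log2 scale (SE 0.108, adjusted p 0.00173 by edgeR). CKAP2 (ENSG00000136108, chromosome 13, 52455429 to 52476628), its relative and a microtubule-associated protein, was at 110, 106 and 99.7 CPM in control, 168, 142 and 120 CPM with hairpin #1 and 154, 154 and 120 CPM with hairpin #3. No knockdown library overlapped control, the C libraries of both hairpins lying nearest to it, and the rise was 0.45 on the log2 scale (SE 0.118, adjusted p 0.0122 by edgeR). The other 5 spindle proteins were not called.

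CBX5 (ENSG00000094916, chromosome 12, 54230940 to 54280133) encodes the heterochromatin protein HP1 alpha. It was at 331, 255 and 281 CPM in control, 457, 386 and 349 CPM with hairpin #1 and 537, 507 and 467 CPM with hairpin #3. All 3 groups were apart, with hairpin #3 highest, and the rise over control was 0.64 on the log2 scale (SE 0.144, adjusted p 0.00489 by edgeR). An antisense entry, RP11-968A15.2, overlaps 33.4% of CBX5 and received 157 counts, against 71873 for CBX5. The 50 nearest genes of CBX5 on chromosome 12 had a median pooled change of 0.16, and the 25 nearest of 0.30. For CDC25B, CKAP2L and CKAP2 the median of the 50 nearest genes was -0.10, 0.05 and 0.06.

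TOP2A, the topoisomerase that untangles sister chromatids, was at 419, 377 and 340 CPM in control, 511, 490 and 370 CPM with hairpin #1 and 467, 468 and 352 CPM with hairpin #3. Its groups overlapped through the C libraries, and the pooled difference was 0.23 (95% interval -0.06 to 0.52). MKI67, the proliferation antigen Ki-67 that coats mitotic chromosomes, was at 583, 407 and 401 CPM in control, 669, 517 and 423 CPM with hairpin #1 and 605, 484 and 363 CPM with hairpin #3. Its 3 groups overlapped widely, and the pooled difference was 0.14 (95% interval -0.28 to 0.55). FOXM1, the transcription factor of G2/M genes, was at 297, 243 and 244 CPM in control, 366, 279 and 309 CPM with hairpin #1 and 367, 310 and 264 CPM with hairpin #3. Control replicate A lay among the knockdown libraries, and the pooled difference was 0.27 (SE 0.126, adjusted p 0.119 by edgeR). FOXM1 overlaps ITFG2 and RHNO1, which lie on the other strand, over 10.8% and 4.61% of its span.

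Centromere and kinetochore genes, kinesins and cytokinesis genes, and partners of the checkpoint and the anaphase-promoting complex had no member called in the pooled comparison, out of 5, 8 and 3 genes. CENPF came nearest, with a pooled difference of 0.41 (SE 0.163, adjusted p 0.0724 by edgeR). The lowest pooled value of the 40 was that of CENPE at -0.27 (95% interval -0.71 to 0.16). Over the 36 members not called, the 95% intervals lay within 2-fold of control for 35 genes, all but PRC1, and within 0.5 on the log2 scale for 21. The SE of the members was 0.134 at the median. CKAP2 lost its call without control replicate C (adjusted p 0.0619 by edgeR). The median of the 40 turned to -0.01 when control replicate C was left out, and to -0.02 when hairpin #1 replicate A was.

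**Figure D1:**
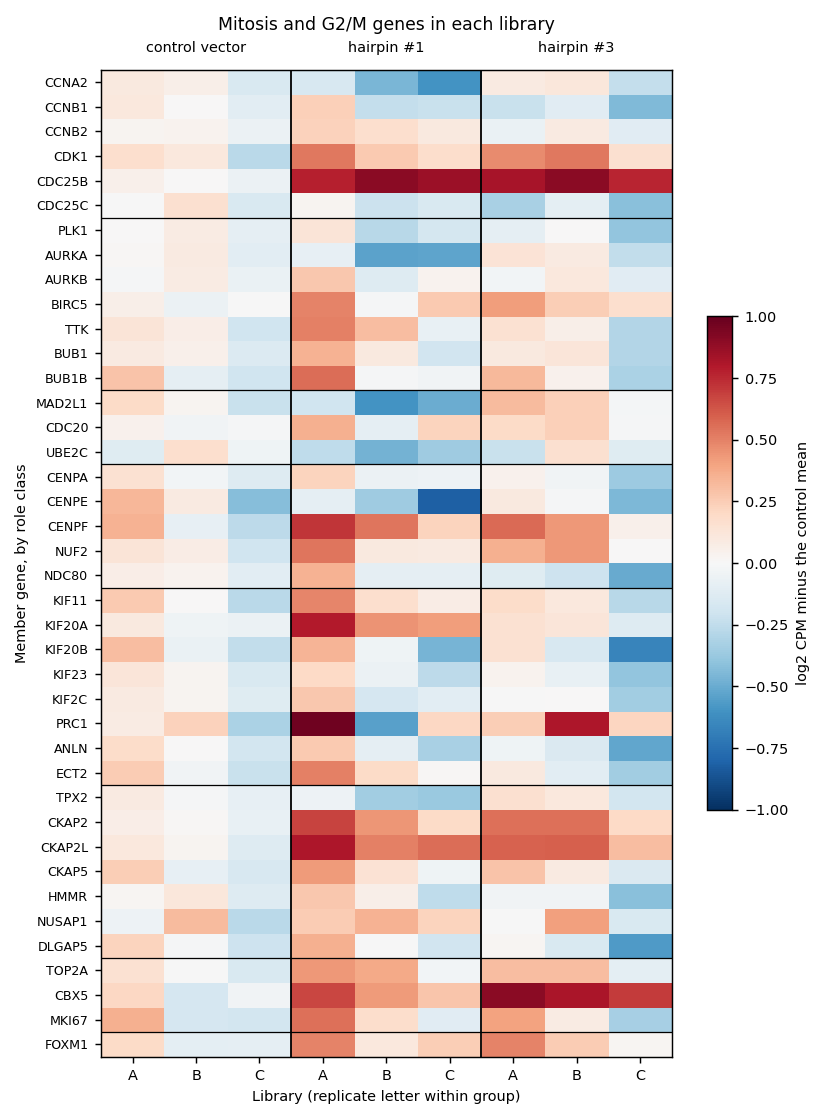
Each cell is the log2 CPM of a gene in a library minus the mean of the 3 control libraries, for the 40 genes by role class (rows, horizontal lines between classes) and the 9 libraries (columns, letters A to C within each group), on a colour scale from -1 to 1. In CDC25B, CKAP2L, CKAP2 and CBX5 all 6 knockdown libraries are above all 3 control libraries, which also holds for 15.5% of all tested genes. CDK1, CENPF, NUF2 and FOXM1 are above 0 in all 6 but overlap control. Within each group the C library is paler or bluer than the A library for most genes.

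Each hairpin was then compared with the same 3 control libraries, so the comparisons share their controls and are given side by side. With hairpin #1, 9 of the 40 genes were called, 6 higher and 3 lower, where 37.8% of all tested genes were called, 18.0% higher and 19.7% lower. With hairpin #3, 5 were called higher and 0 lower, where 34.7% of all tested genes were called, 16.6% higher and 18.1% lower. The models of these comparisons held no letter term. With the letter as a replicate block, hairpin #1 had 16 called higher and 6 lower, and hairpin #3 had 9 higher and 6 lower. The shares of all tested genes called were then 48.8% and 45.6%. No member changed by 2-fold with either hairpin, against 16.3% of all tested genes with hairpin #1 and 15.3% with hairpin #3. The median member was at 0.17 with hairpin #1 (28 above 0, 12 below) and at 3e-04 with hairpin #3 (20 above, 20 below).

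CDC25B, CKAP2L, CKAP2 and CBX5 were called with each hairpin. CDC25B rose by 0.85 with hairpin #1 and 0.83 with hairpin #3 on the log2 scale. For CKAP2L the values were 0.63 and 0.50, for CKAP2 0.45 and 0.44, and for CBX5 0.46 and 0.80. Without a letter term the direct difference between the hairpins was not called for any of these genes. For CBX5 it was 0.34 (SE 0.126, adjusted p 0.104 by edgeR), with all 3 hairpin #3 libraries above all hairpin #1 libraries. With the letter as a replicate block, CBX5 alone of these genes was called between the hairpins (adjusted p 0.00394 by edgeR).

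KIF20A and CENPF were called higher with hairpin #1. KIF20A (chromosome 5, 138178719 to 138187715), a kinesin of the central spindle, was at 198, 179 and 177 CPM in control, 320, 251 and 246 CPM with hairpin #1 and 205, 201 and 168 CPM with hairpin #3. All hairpin #1 libraries lay above all others, while hairpin #3 overlapped control. The log2 fold change was 0.56 with hairpin #1 (SE 0.12, adjusted p 0.00231 by edgeR) and 0.05 with hairpin #3 (95% interval -0.21 to 0.31). CENPF, a large kinetochore and matrix protein, was at 514, 382 and 337 CPM in control, 664, 587 and 472 CPM with hairpin #1 and 597, 548 and 420 CPM with hairpin #3. Its hairpin #1 value was 0.48 (SE 0.176, adjusted p 0.0451 by edgeR) and its hairpin #3 value 0.34 (adjusted p 0.154), and the groups overlapped through control replicate A.

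MAD2L1, CCNA2 and UBE2C were called lower with hairpin #1. MAD2L1 (chromosome 4, 120055608 to 120067074), the checkpoint protein that restrains CDC20, was at 123, 109 and 92.3 CPM in control, 93.6, 71 and 76.2 CPM with hairpin #1 and 134, 126 and 106 CPM with hairpin #3. CCNA2 (chromosome 4, 121816444 to 121823933), cyclin A2, was at 196, 190 and 164 CPM in control, 163, 133 and 121 CPM with hairpin #1 and 195, 197 and 155 CPM with hairpin #3. UBE2C (chromosome 20, 45812576 to 45816957), which works with the anaphase-promoting complex, was at 139, 170 and 148 CPM in control, 128, 110 and 119 CPM with hairpin #1 and 130, 170 and 140 CPM with hairpin #3. CCNA2 and UBE2C were lower in every hairpin #1 library than in any control library, whereas for MAD2L1 hairpin #1 replicate A exceeded control replicate C. The log2 fold changes with hairpin #1 were -0.43 for MAD2L1 (adjusted p 0.0227), -0.40 for CCNA2 (0.0293) and -0.36 for UBE2C (0.0271), all by edgeR. With hairpin #3 the same genes were at 0.17, -0.01 and -0.06 and were not called.

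CDK1 was called with hairpin #3 alone, at 0.38 (SE 0.139, adjusted p 0.049 by edgeR), but its hairpin #1 value of 0.32 (adjusted p 0.0886) differed from it by 0.06 (95% interval -0.24 to 0.36). For the members not called, the 95% intervals lay within 2-fold of control for 30 of 31 genes with hairpin #1 and 34 of 35 with hairpin #3, PRC1 being the exception in each.

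Several of the calls with single hairpins rested on particular libraries. With hairpin #1, CCNA2 and MAD2L1 lost their call when control replicate A or B, or replicate B or C of the hairpin, was left out (adjusted p 0.0624 to 0.12), and UBE2C when control replicate B or the same hairpin libraries were (0.0594 to 0.128). CENPF lost its call on leaving out any of control B, control C, hairpin #1 A, hairpin #1 B and hairpin #3 B (0.0648 to 0.176), and under scaling by library totals (0.0642). CBX5 lost it without control replicate B (0.0667), and CKAP2 on leaving out control C or hairpin #1 A (0.0598 and 0.063). The number called fell from 9 to 4 without control replicate B, where the share of all tested genes called was 29.8%. The median of the 40 went from 0.17 to -0.05 without hairpin #1 replicate A, the library in which the 40 genes were highest. With hairpin #3, CDK1 lost its call on leaving out control B, control C, hairpin #1 B, hairpin #1 C, hairpin #3 A or hairpin #3 B (0.0559 to 0.204) and under library totals (0.0613), and CKAP2 on leaving out control B, control C, hairpin #3 A or hairpin #3 B (0.0558 to 0.0816). The number called with hairpin #3 was 3 instead of 5 without any of those last 4 libraries, beside 27.3% to 32.4% of all tested genes. All of these are edgeR adjusted p-values. CDC25B, CKAP2L and KIF20A kept their calls with hairpin #1, and CDC25B, CKAP2L and CBX5 with hairpin #3, whichever library was left out.

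**Figure D2:**
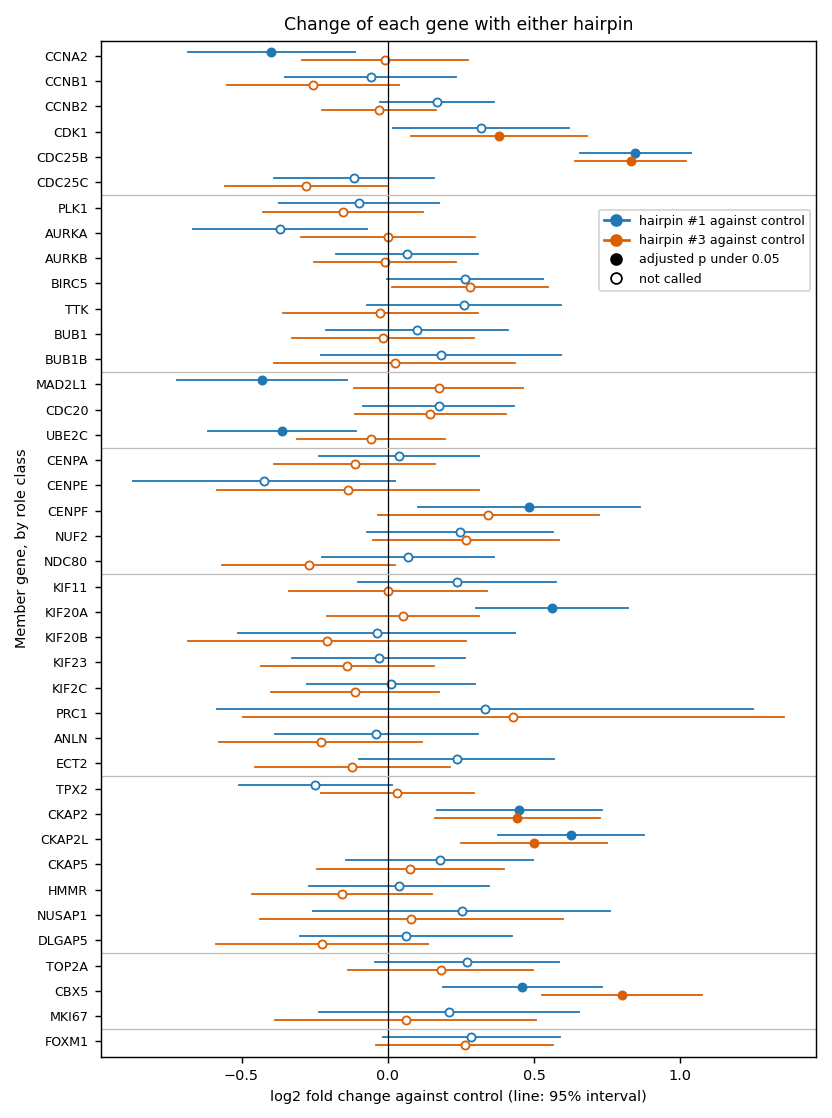
The log2 fold change of each of the 40 genes against control, with hairpin #1 in blue and hairpin #3 in orange, with lines for 95% intervals and filled points for genes called at an adjusted p under 0.05. CDC25B lies near 0.84 with both hairpins, MAD2L1, CCNA2 and UBE2C are filled and below 0 only in blue, and PRC1 has the widest intervals.

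Hairpin #3 was compared with hairpin #1 directly. MAD2L1 was higher with hairpin #3, by 0.60 (SE 0.135, adjusted p 0.0108 by edgeR), and KIF20A was lower, at -0.51 (SE 0.12, adjusted p 0.0143). For both genes the 3 libraries of a hairpin lay on 1 side of the 3 of the other. The same separation held for UBE2C and CBX5, higher with hairpin #3, and for CCNB2 and NDC80, lower. The share of all tested genes with such a separation was not counted. In this model without a letter term, MAD2L1 and KIF20A were the only calls, 2 of 40, beside 11.6% of all tested genes, 6.33% higher and 5.30% lower. With the letter as a replicate block, 7 members were called higher and 6 lower, beside 23.1% of all tested genes. Without the block no member differed by 2-fold, against 3.93% of all tested genes. The 40 genes had a median difference of -0.11, with 11 above 0 and 29 below, beside -0.0087 over all tested genes. At an unadjusted p under 0.05 there were 10 of the 40, beside 3994 of the 15975 tested genes. The 95% interval lay within 2-fold for all 38 genes not called.

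Values in this comparison differed by chromosome. Chromosome 4 carries CCNA2, MAD2L1 and CENPE, and chromosome 20 carries CDC25B, AURKA, UBE2C and TPX2. On chromosome 4 the 3 members had a median difference of 0.39, and the 368 genes there whose mean reached 10 CPM had a median of 0.40. On chromosome 20 the 4 members were at a median of 0.29 and the 281 genes at 0.33. The other 33 members were at a median of -0.14, with 5 above 0 and 28 below, beside -0.03 for the 9044 genes elsewhere. Thus 6 of the 11 members above 0 were on these 2 chromosomes.

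Against the median of the 50 nearest genes, CCNA2 (0.39) differed by 0.01, UBE2C (0.30) by 0.01, TPX2 (0.28) by -0.05, AURKA (0.37) by 0.09 and CENPE (0.29) by -0.10. MAD2L1 was 0.23 above its neighbours. CDC25B, at -0.02 between the hairpins, differed by -0.39 from its neighbours, which were at 0.38. KIF20A on chromosome 5 also differed by -0.39 from its neighbours, which were at -0.12. Against control, the same chromosomes were low with hairpin #1. Of the genes whose mean reached 10 CPM, 55.7% on chromosome 4 and 52% on chromosome 20 were called lower with hairpin #1, against 18% elsewhere. All 3 members called lower with that hairpin in the model without a letter term are on these chromosomes. With the letter as a replicate block, the 6 called lower were CCNA2, AURKA, MAD2L1, UBE2C, CENPE and TPX2, which are on them as well. With hairpin #3 the shares called lower were 16.3%, 16.4% and 19%. The rise of CDC25B with hairpin #1, against neighbours at a median of -0.31, amounted to 1.15 relative to them, and its rise with hairpin #3 to 0.77. The part of the chromosome-wide shifts in the values of the members was not tested.

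Of the genes on chromosomes 4 and 20, CENPE and TPX2 remain. CENPE, the kinesin that brings chromosomes to the metaphase plate, was at 167, 141 and 99 CPM in control, 125, 104 and 75.3 CPM with hairpin #1 and 142, 131 and 97.4 CPM with hairpin #3. TPX2 was at 554, 518 and 492 CPM in control, 504, 410 and 403 CPM with hairpin #1 and 581, 560 and 457 CPM with hairpin #3. In AURKA, CENPE and TPX2 the hairpin #3 libraries overlapped both control and hairpin #1. Without a letter term the difference between hairpins was not called (adjusted p 0.11, 0.448 and 0.169 by edgeR). With the letter as a replicate block it was called in each of them (adjusted p 0.00817, 0.00556 and 0.0138 by edgeR). MAD2L1 lost its call without hairpin #1 replicate B or hairpin #3 replicate B (adjusted p 0.0568 and 0.0521), and KIF20A without hairpin #3 replicate C (0.0744). Without hairpin #1 replicate A, 5 of the 40 were called, beside 12% of all tested genes. The median difference of the 40 was then 0.03, and without hairpin #3 replicate C it was 0.01.

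**Figure D3:**
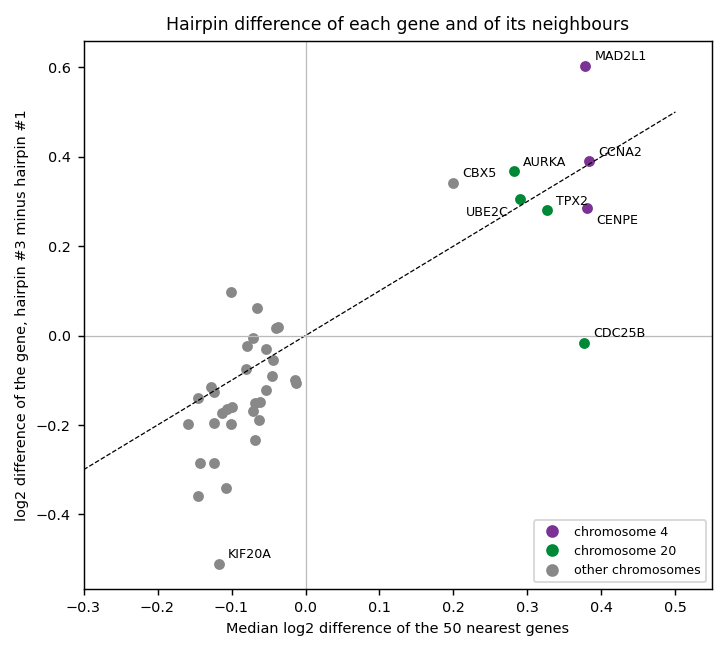
The log2 difference of each of the 40 genes between hairpin #3 and hairpin #1 (vertical axis) is plotted against the median difference of its 50 nearest genes (horizontal axis), and the dashed line marks equal values. Members on chromosomes 4 and 20 lie at neighbour medians of 0.28 to 0.38, most of them near the line, with MAD2L1 above it and CDC25B below it.

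Of the 6 comparisons, the one between replicate A and the other letters called the most of the 40 genes. The models of the group comparisons held no letter term, so the numbers called cannot be compared directly. The median SE of the members was 0.066 here, against 0.134 in the pooled comparison and 0.137 with either hairpin. In a model with the group and the letter, 28 of 40 genes were called higher in replicate A than in replicates B and C and none lower, where 21.0% of all tested genes were called, 10.5% higher and 10.4% lower. The median difference was 0.24, with 37 genes above 0, beside -0.0156 over all tested genes. No member differed by 2-fold, a size reached by 1.04% of all tested genes. All 5 centromere and kinetochore genes, 7 of 8 kinesins and cytokinesis genes, 5 of 7 mitotic kinases and passenger genes, all 3 chromosome proteins and FOXM1 were called, with 4 of 7 spindle proteins, 2 of 6 cyclin and CDC25 genes and 1 of 3 checkpoint partners. The members called in this comparison did not include CDC25B, at -0.01, or UBE2C, at -0.09.

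KIF20B, a kinesin of late mitosis, had the largest difference. It was at 91.7, 70.6 and 62.3 CPM in control libraries A, B and C, 93.3, 71.8 and 53.6 CPM with hairpin #1 and 82, 66.3 and 46.6 CPM with hairpin #3, and replicate A was higher by 0.54 (SE 0.0659, adjusted p 0.000176 by edgeR). Each A library exceeded every B and C library of any group. MKI67, whose values are given above, was higher by 0.52 (SE 0.066, adjusted p 0.0002 by edgeR), with the 3 A libraries at 583 to 669 CPM and all others at 363 to 517 CPM.

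BUB1B, the checkpoint kinase BUBR1, was at 73.8, 57 and 52.7 CPM in control, 89.3, 60 and 59 CPM with hairpin #1 and 75.7, 62.4 and 48.6 CPM with hairpin #3, a difference of 0.49 (SE 0.0683). DLGAP5, a spindle protein that stabilises kinetochore fibres, was at 106, 90 and 78.3 CPM in control, 116, 90.6 and 79.6 CPM with hairpin #1 and 91.9, 81.6 and 61.1 CPM with hairpin #3, a difference of 0.39 (SE 0.0614). The A library was the highest of its group for each of these genes. ECT2, the exchange factor that starts the cleavage furrow, was at 206, 168 and 148 CPM in control, 244, 197 and 174 CPM with hairpin #1 and 184, 160 and 135 CPM with hairpin #3, a difference of 0.37 (SE 0.0548). CKAP5, a microtubule polymerase, was at 269, 214 and 203 CPM in control, 304, 251 and 220 CPM with hairpin #1 and 276, 242 and 206 CPM with hairpin #3, a difference of 0.35 (SE 0.0563). CENPE and CENPF were higher by 0.44 (SE 0.0582) and 0.39 (SE 0.0628). The adjusted p-values of these genes were 0.000287 to 0.000951 by edgeR, and in each of them A was above B and B above C in all 3 groups.

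Replicate C was the lowest library for most members. In the control group A was highest for 31 genes and C lowest for 35. With hairpin #1 the numbers were 38 and 24, with B lowest for 15, and with hairpin #3 they were 23 and 39, with B highest for 17. Replicate C was the highest library for none of the 40 in any group. A was highest in all 3 groups for 21 genes, or 52.5%, beside 16.1% of all tested genes, C was lowest in all 3 for 23, or 57.5%, beside 8.06%, and both held for 15, or 37.5%, beside 4.13%. The 40 genes deviated from their group mean by an average of 0.129, 0.023 and -0.152 in control A, B and C, by 0.243, -0.087 and -0.156 with hairpin #1 and by 0.12, 0.105 and -0.225 with hairpin #3, on the log2 scale.

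In the direct comparison of C with B, 38 of 40 genes were lower in C, with a median of -0.19 beside 0.0053 over all tested genes. At an unadjusted p under 0.05 there were 18 of the 40, beside 1274 of the 15975 tested genes. Only CENPE was called, at -0.47 (SE 0.0686, adjusted p 0.0362 by edgeR). It was the single gene called lower of 15975, or 0.00626%, with 0.0125% higher and 0.0188% in all. The DESeq2 Wald test called 4 members, CENPE, CENPF, KIF20B and TOP2A, beside 0.106% of all tested genes. CENPE lost its call when any library but hairpin #3 replicate A was left out (adjusted p 0.0528 to 0.373).

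Other measures moved with the letters. Mitochondrial genes took 2.75% of counts in control A against 4.011% and 3.783% in B and C, 2.915% against 3.855% and 3.481% with hairpin #1, and 3.027% against 3.488% and 3.784% with hairpin #3. The 10 most abundant genes took 5.036% to 5.485% in the A libraries and 5.848% to 7.263% in the others. The part of these in the differences between letters was not tested. The count of 28 rested partly on hairpin #1 replicate A, without which 11 members were called, beside 10.3% of tested genes. It was 16 without the control group, 15 without the hairpin #3 group, and 18 higher and 1 lower, UBE2C, without the hairpin #1 group, beside 11.2%, 8.66% and 18.6% of tested genes. CDK1, AURKA, TOP2A and BIRC5, with differences of 0.225 to 0.23, lost their calls when certain libraries were left out. CDK1 did so on leaving out control A, control C or hairpin #1 A, TOP2A on leaving out control A, control B or the A library of either hairpin, AURKA on leaving out control C or the A or C library of either hairpin, and BIRC5 on leaving out control C, hairpin #1 A, hairpin #3 A or hairpin #3 C (adjusted p 0.0513 to 0.387 by edgeR).

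**Figure D4:**
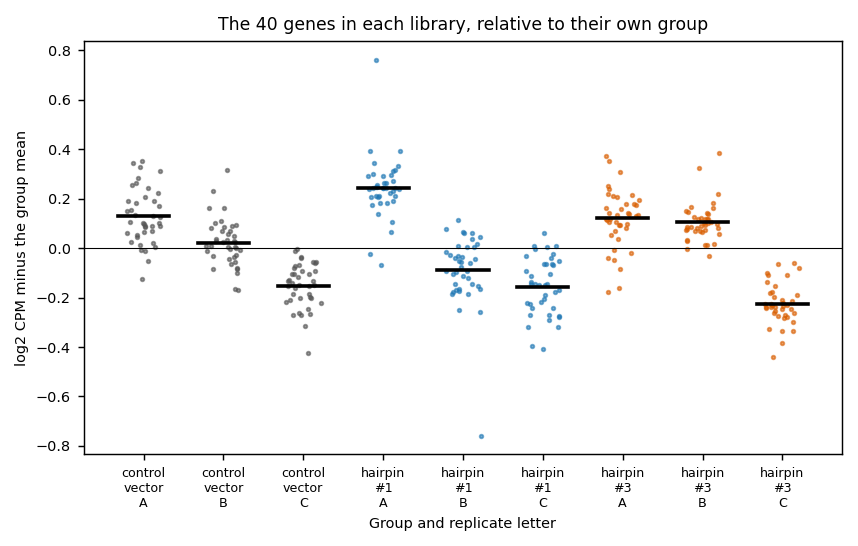
Each point is 1 of the 40 genes in a library, as log2 CPM minus the mean of the library's own group, and the bar is the mean of the 40. The A libraries have means of 0.12 to 0.243 and the C libraries of -0.225 to -0.152, and the points at 0.76 and -0.76 in hairpin #1 are PRC1.

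Because these genes moved together between letters, their promoters are shown for the elements that G2/M promoters are known to carry. These are the cell cycle genes homology region, CHR, searched as TTTGAA or TTCGAA, and the CCAAT box, searched as CCAAT, each on both strands, from 250 bases before to 50 bases after each start in a RefSeq table on GRCh38.p14. Of the 40 genes, 34 matched, and FOXM1, AURKA, UBE2C, TPX2, TTK and BIRC5 did not. A CHR was in at least 1 window of 26 of 34 genes (76.5%), beside 19.5% of the 27305 genes in the table. CCAAT was in 27 (79.4%), beside 39.7%, and both were in the same window for 22 (64.7%), beside 7.85%. By window, 64.4% of 45 member windows and 16.4% of all 35116 windows held a CHR. Shown are 180 bases from 150 before to 30 after the start, 5′ to 3′, of 2 classical G2/M genes, CCNB2 and PLK1, of 3 genes with large letter differences, MKI67, BUB1B and DLGAP5, and of 2 genes raised by knockdown, CKAP2L and CDC25B, with CHR and CCAAT matches in capitals.
CCNB2 (chr15:59104996-59105175, plus strand): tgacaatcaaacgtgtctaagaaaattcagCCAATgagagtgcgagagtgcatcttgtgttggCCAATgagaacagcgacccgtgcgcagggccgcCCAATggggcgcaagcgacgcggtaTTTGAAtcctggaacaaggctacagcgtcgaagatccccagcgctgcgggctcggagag
PLK1 (chr16:23678739-23678918, plus strand): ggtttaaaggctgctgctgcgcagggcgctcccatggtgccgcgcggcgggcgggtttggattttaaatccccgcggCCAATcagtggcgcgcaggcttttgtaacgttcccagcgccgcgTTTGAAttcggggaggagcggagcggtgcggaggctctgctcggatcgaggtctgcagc
MKI67 (chr10:128126394-128126573, minus strand): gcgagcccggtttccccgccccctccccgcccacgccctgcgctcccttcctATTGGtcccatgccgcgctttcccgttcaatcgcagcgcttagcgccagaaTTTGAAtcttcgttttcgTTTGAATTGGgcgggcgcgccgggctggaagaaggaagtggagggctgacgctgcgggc
BUB1B (chr15:40160919-40161098, plus strand): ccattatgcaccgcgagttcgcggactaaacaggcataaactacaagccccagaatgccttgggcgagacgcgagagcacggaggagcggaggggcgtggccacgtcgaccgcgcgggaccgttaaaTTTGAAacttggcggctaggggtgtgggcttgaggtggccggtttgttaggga
DLGAP5 (chr14:55191556-55191735, minus strand): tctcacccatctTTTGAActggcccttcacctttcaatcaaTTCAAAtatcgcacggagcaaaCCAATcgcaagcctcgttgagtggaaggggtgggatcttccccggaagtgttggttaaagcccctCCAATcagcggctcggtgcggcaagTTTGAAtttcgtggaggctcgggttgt
CKAP2L (chr2:112764580-112764759, minus strand): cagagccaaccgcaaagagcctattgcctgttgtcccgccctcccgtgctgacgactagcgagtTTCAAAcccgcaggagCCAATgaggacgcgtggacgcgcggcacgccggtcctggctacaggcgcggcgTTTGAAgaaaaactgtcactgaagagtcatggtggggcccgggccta
CDC25B (chr20:3796160-3796339, plus strand): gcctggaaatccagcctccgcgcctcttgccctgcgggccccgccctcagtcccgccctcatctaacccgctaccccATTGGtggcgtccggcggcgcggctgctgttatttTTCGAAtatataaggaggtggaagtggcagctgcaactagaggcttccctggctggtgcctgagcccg

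Within the 180 bases shown, a single CHR in CCNB2 began 29 bases before the start, with CCAAT at -120, -87 and -54. PLK1 had the same CHR position, -29, with CCAAT at -73. MKI67 had a CHR at -47 and another at -29, with CCAAT at -98 and -24, the last of which shares a base with the CHR at -29. BUB1B had a CHR at -23 and no CCAAT in its window. DLGAP5 had a CHR at -138, -109 and 3, with CCAAT at -87 and -22. CKAP2L had a CHR at -86 and -17 with CCAAT at -70. CDC25B has 4 starts in the table, of which 1, shown here, held a CHR, at -38, with CCAAT at -73. Of the other genes raised in the pooled comparison, CKAP2 had neither element in its window and CBX5 had CCAAT alone. The 22 members with both elements in a window had a median letter A difference of 0.24 and the other 12 had 0.25. Their pooled medians against control were 0.10 and -0.01. Of these members, 13 of 22 (59.1%) and 10 of 12 (83.3%) were called higher in replicate A. Among the other tested genes, 16.3% of the 675 with both elements and 11.7% of the 9868 without were called higher in replicate A. A match to these letters is a description of the sequence and does not show that a factor binds there.

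The members were set beside other cell cycle genes, in lists that hold none of the 40, and the counts are read against the 15.9% of all tested genes called higher and 17.0% called lower. Of 23 other G2/M genes, knockdown raised 2, GTSE1 (0.39) and PSRC1 (0.31), and of 53 genes of other mitotic complexes it raised 3 and lowered 4, led by DEPDC1B (-0.64), SMC2 (0.50) and ZW10 (-0.50). Of 16 subunits of the anaphase-promoting complex 1 rose, CDC26 (0.45). Among 18 regulators of mitotic entry, 7 were called lower and none higher, with a median of -0.23, 17 below 0, and the most changed were SFN (14-3-3 sigma, -1.65), CDK7 (a kinase that activates CDK1, -0.65) and GADD45A (a stress-induced inhibitor, -0.49). Of these regulators 8 were called lower with hairpin #1 and 6 with hairpin #3, where 19.7% and 18.1% of all tested genes were. Among 22 DREAM, MuvB, E2F and NF-Y factors, 5 rose and 4 fell. The falls included CDKN1A (p21, -0.98) and E2F5 (-0.78). The rises included NFYB (0.56), a subunit of the CCAAT-binding factor named after its values were seen, and the largest rise, of another gene, was 1.02. Of 42 S phase genes, 6 were called lower, a smaller share than that of all tested genes, and none higher, with E2F8 (-0.95), DSCC1 (-0.77) and CDC6 (-0.62) changing most and a median of -0.14. The median of the 40 mitotic genes in the same comparison was 0.07, with none called lower.

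Most of these lists also differed between letters. Replicate A was higher for 33 of 42 S phase genes (median 0.31), 30 of 53 genes of other mitotic complexes (0.26), 8 of 23 other G2/M genes with 1 lower (0.12), 6 of 18 regulators of mitotic entry (0.16) and 8 of 22 DREAM, MuvB, E2F and NF-Y factors with 2 lower (0.18), while of the 16 anaphase-promoting complex subunits 3 were higher and 4 lower (-0.09). Of all tested genes, 10.5% were called higher and 10.4% lower. Between C and B, the S phase genes had a median of -0.01, with 24 of 42 below 0, where the 40 mitotic genes had -0.19, with 38 below 0.

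**Figure D5:**
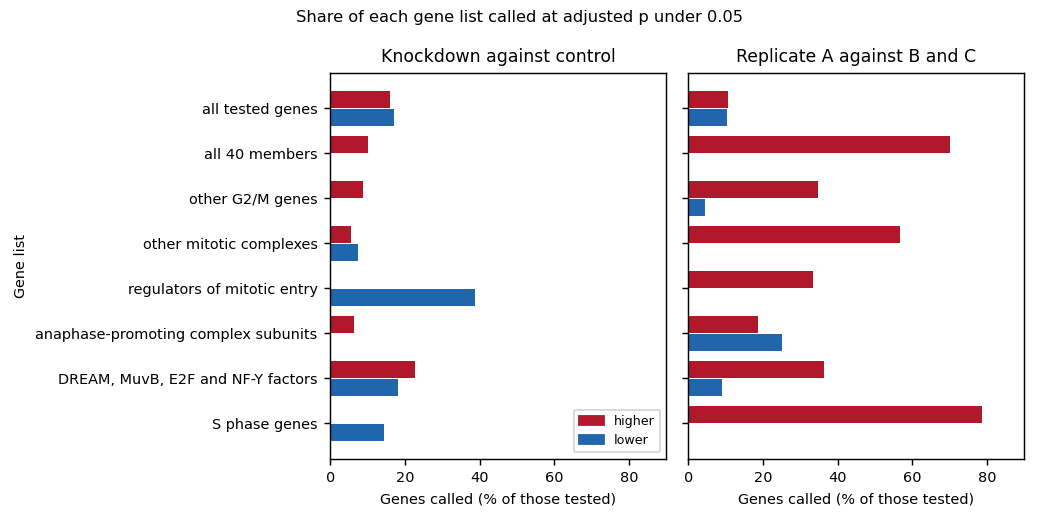
Bars give the percent of each gene list called higher (red) or lower (blue) at an adjusted p under 0.05, for knockdown against control (left) and replicate A against B and C (right), beside all tested genes at the top. The 40 genes have a red bar of 10% on the left, below the 15.9% of all tested genes, and a far longer one on the right, where only S phase genes reach higher. The model on the left holds no letter term, whereas the model on the right holds group and letter.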

How the data were processed

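RNA from 9 libraries of OVCA433 cells was prepared with a non-directional kit, so reads carry no strand. The authors aligned reads to hg38 with HISAT2 2.0.5 and counted them per gene with featureCounts 1.5.0-p3, per the labels and the study's methods, and the deposited table holds raw counts of 58676 genes, without normalization. Groups and replicate letters were taken from the labels. From these counts, genes were kept by filterByExpr (minimum count 10, minimum total 15), which left 15975 genes holding 99.889% of counts, and TMM factors were computed. Tests were edgeR 4.0.16 quasi-likelihood tests in R 4.3.3, fitted to all genes with Benjamini-Hochberg adjustment. The pooled comparison was fitted with both hairpins as 1 arm, hairpin comparisons with 3 groups, and letters with group and letter as terms. DESeq2 1.42.0 was an alternative. The tests were checked on simulated counts with the same spread for every gene and, in group comparisons, no differences between letters. That check therefore does not cover the letter differences of these libraries. Library totals were 16850854 to 23890191, and the median SE of the members in the pooled comparison was 0.134. Nothing in the sources says whether replicates came from separate cultures beyond their being called biological replicates of 1 line, so p-values measure the spread between these libraries. No pair of libraries within a group agreed within sampling noise (chi-square per degree of freedom 6.803 to 41.96). The members and all gene lists were chosen with earlier results of these data known. Values per library are given for members called between groups, the 8 members that differed most between letters, 8 fixed genes, the members of highest and lowest level, and those on chromosomes 4 and 20, and up to 3 genes are named from every other list. Some genes of those lists are not reported here. Neighbours are the 50 nearest genes of at least 10 mean CPM on the same chromosome. Alternatives were another scaling, no filter, a stricter filter or threshold, other models, a replicate block and leaving out each library, with leaving out the 3 libraries of a letter chosen after seeing the data.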

Additional observations from a re-analysis of the deposited data

Results flagged for a closer look

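MAD2L1 differed between the hairpins when they were compared directly, at 0.60 on the log2 scale for hairpin #3 against hairpin #1 (edgeR adjusted p 0.0108), and KIF20A differed by -0.51 (adjusted p 0.0143). For each gene the 3 libraries of a hairpin lay on 1 side of the 3 of the other, as they also did for UBE2C, CBX5, CCNB2 and NDC80.

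Among the 6 knockdown libraries, hairpin #3 replicate B had the lowest level of the targeted gene MPZL3, at 0.988 CPM against 1.8 to 1.98 CPM in the other 5. That level rests on only 18 counts. On the log2 CPM scale its gap to the nearest library was 0.857 of the whole range. Groups of 3 were not tested in this way, and chance alone singles out about 1 in 20 groups.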

How the results depend on the processing

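No member reached a 2-fold change in any of the 6 comparisons, so that requirement left 0 calls in each. At an adjusted p under 0.01, 3 members were called with hairpin #1, 3 with hairpin #3, 0 between the hairpins, 13 for replicate A and 0 for C against B. The shares of all tested genes at that threshold were not counted. With 3 groups in the model the pooled comparison called 7 members, beside 40.1% of all tested genes. With no filter 6 were called between the hairpins, beside 7.5%, and 4 for C against B, beside 0.204%. The DESeq2 Wald test called 4 for C against B, beside 0.106%.

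Libraries with the same letter had deviations that correlated at 0.064 to 0.678 (9 pairs, 9693 genes), against -0.672 to 0.327 for different letters (18 pairs), and 8 of 9 libraries correlated best with their own letter, the exception being hairpin #1 replicate B. Not every pair exceeded 0.1, so the main group comparisons held no letter term, although the comparisons between letters did hold it. With the letter as a replicate block, 9 members were called in the pooled comparison, 22 with hairpin #1 (16 higher, 6 lower), 15 with hairpin #3 (9 higher, 6 lower) and 13 between the hairpins (7 higher, 6 lower), beside 36.1%, 48.8%, 45.6% and 23.1% of all tested genes.

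Without the 3 letter B libraries the calls were 2 pooled, 3 with hairpin #1, 2 with hairpin #3 and 0 between the hairpins, where the share of all tested genes called also fell, to 18.3%, 21%, 19.3% and 2.23%, and CBX5 and CKAP2 lost their pooled calls (adjusted p 0.0662 and 0.127). Without letter A, 6 were called between the hairpins, beside 16.8% of all tested genes, and CKAP2 lost its pooled call (0.0513). Without letter C 1 was called between the hairpins, beside 4.19%. For replicate A, 16 were called without the control group and 15 without the hairpin #3 group, beside 11.2% and 8.66% of all tested genes. For C against B 0 were called without any of the 3 groups. Leaving out each library in turn gave 3 to 6 members pooled, 4 to 10 with hairpin #1 and 3 to 6 with hairpin #3. It gave 1 to 5 between the hairpins, 11 to 30 for replicate A and 0 to 1 for C against B. The shares of all tested genes called were, in the same order, 22.9% to 32.3%, 29.8% to 38.4%, 27.3% to 36%, 6.39% to 12%, 10.3% to 23.8% and 0% to 0.0244%. The medians of the members were -0.0193 to 0.1208, -0.045 to 0.2085, -0.0614 to 0.12, -0.1887 to 0.0254, 0.1689 to 0.2878 and -0.2675 to -0.1245. The difference of CDC25B between the hairpins, -0.02, became 0.0069 with library totals and 0.0265 without letter C, and ranged from -0.0559 to 0.0215 without a single library, with 0.0176 without hairpin #1 replicate B. The cause of these changes was not tested.

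Of 980 values of named members under alternatives, 810 kept their direction and side of the threshold, 141 lost the threshold, 25 gained it and 4 reversed. PRC1 had 8 to 25 counts in a library and NUSAP1 40 to 64.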
